A study of Mus musculus with 12 samples.

Results

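Cell cycle and DNA replication genes were followed in 12 RNA libraries from mouse hearts. The members are 45 genes, chosen by name and matched by symbol to the Ensembl identifiers of the 38293 genes counted in each of 2 tables, and all 45 were matched. By role they comprise 8 G1 cyclins and cyclin-dependent kinases (CDKs), 4 CDK inhibitors, 4 genes of the E2F, pocket protein and p53 group, 11 genes of DNA replication and nucleotide supply, 17 genes of G2 and mitosis, and Polq. Measured values played no part in matching them, but the list was chosen with earlier results of these data known.

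The genotype field of the records reads C57B/6J for every mouse, although the titles of the sham hearts read C75Bl/6J and the others C57Bl/6J. The methods give an age of 8 to 9 weeks and name males in one place and both sexes in another. Each group holds 3 hearts. WT sham mice had sham surgery, and WT IR mice had ischaemia–reperfusion injury (IR), in which the left anterior descending coronary artery is tied for 1 h and released, with tissue taken after 14 days. Zeb2 WT IR mice are wild-type littermates after the same injury. Zeb2 cTg IR mice had the same injury and carry Rosa26-LoxStopLox-Zeb2 with a Cre driven by the Myh6 (αMHC) promoter, so the transgene is meant for cardiomyocytes and other heart cells keep it silent. The records name left ventricle as the tissue, the design text names infarct with border zone, and the methods name the remote zone. The sources therefore do not settle which zone each library holds.

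The cell cycle is driven by cyclins that switch on CDKs. D-type cyclins with Cdk4 or Cdk6, and later cyclin E with Cdk2, release E2F factors from the retinoblastoma (pocket) proteins, and E2F factors in turn switch on the genes that copy DNA. Cyclin A and cyclin B with Cdk1 then carry the cell through G2 and mitosis, while inhibitors such as p21 and p27 hold the kinases back. Adult cardiomyocytes rarely divide, and in an injured heart fibroblasts, macrophages and endothelial cells are known to make up most dividing cells.

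Levels are given as CPM, counts per 1e6 counts at library sizes scaled by TMM, with each table scaled on its own. Between 20215781 and 36816818 reads were counted per library, of which between 60.6% and 73.5% came from the mitochondrial genome, and 1 CPM stands for between 17.2 and 37.8 counts. Zeb2 was the check of the labels. It had 54.7, 57.7 and 67.0 CPM in Zeb2 WT IR and 55.5, 56.8 and 58.7 CPM in Zeb2 cTg IR, which gives a log2 fold change of -0.07 (standard error, SE, 0.12, adjusted p = 0.750 by edgeR's quasi-likelihood test with Benjamini-Hochberg adjustment). The groups overlapped. These hearts therefore appear below as libraries labelled Zeb2 cTg IR, since any direction in them depends on that label. In the WT table Zeb2 had a log2 fold change of 0.47 (SE 0.12, edgeR adjusted p = 0.0219) in WT IR against WT sham.

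The members spanned more than 2 orders of magnitude when their CPM was divided by exon length. In WT sham, the highest levels per length were those of Ccnd2 with 6.51 ± 0.385 CPM per kb (SD, n = 3), Ccnd1 with 5.64 ± 0.441, Rb1 with 3.89 ± 0.356, Cdk4 with 3.84 ± 0.0572 and Cdkn1b with 3.14 ± 0.291. Ccnd1 and Ccnd2 encode cyclins D1 and D2, Rb1 the retinoblastoma protein and Cdkn1b the inhibitor p27. Mki67, the proliferation antigen Ki-67, had 0.881 ± 0.0557 CPM per kb and Top2a, the topoisomerase that untangles replicated chromosomes, 0.433 ± 0.0257. The lowest were Bub1 with 0.0634 ± 0.0234 CPM per kb and Ccnb1 with 0.0552 ± 0.0221, both mitotic genes, whose SDs overlap.

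**Figure D1:**
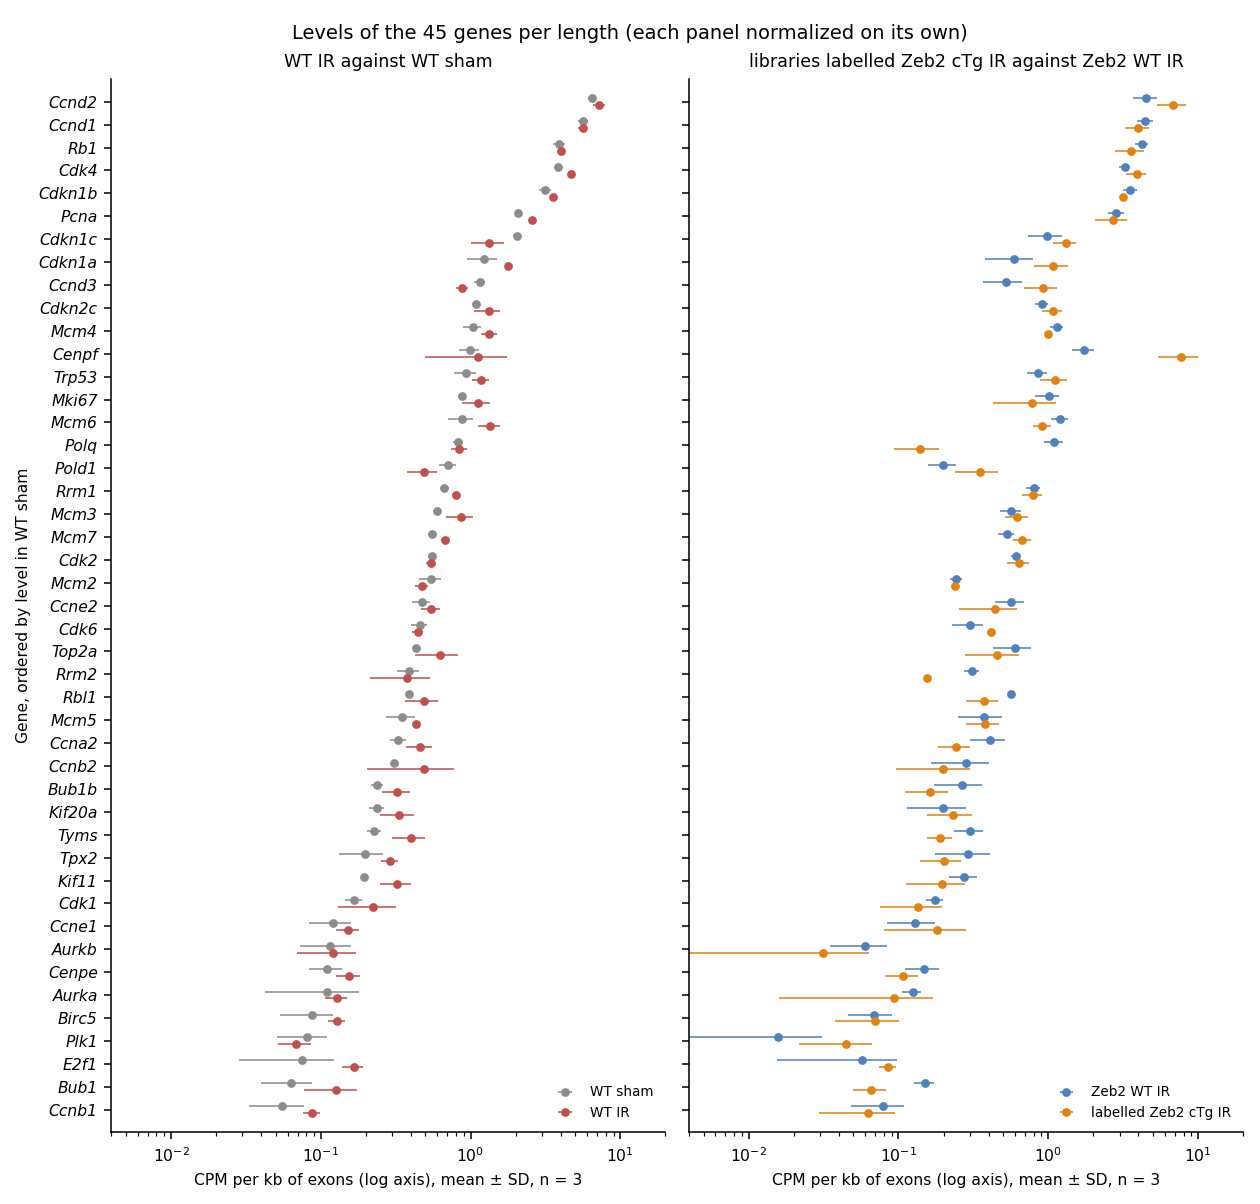
Level of each of the 45 genes in CPM per kb of exons (log axis), as the mean ± SD of 3 libraries per group, with genes ordered by their mean in WT sham and each panel scaled on its own. Cyclins D1 and D2, Rb1, Cdk4 and Cdkn1b lie highest and mostly mitotic genes lowest, and in the right panel Cenpf and Polq are the members with groups farthest apart. An arm that runs to the left edge belongs to an SD close to or above the mean.

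WT IR hearts were compared with WT sham hearts to ask how the injury changed these genes. Of the 45 members, 44 passed the filter on low counts and Plk1 did not. Cdk4, Cdkn1a, Mcm6, Tyms and Kif11 rose and Ccnd3 and Cdkn1c fell at an adjusted p under 0.05 by edgeR, and of these Cdk4, Cdkn1a, Kif11 and Ccnd3 did not pass by DESeq2. These 7 are 15.9% of the 44 members tested, where 20.8% of all 13756 genes tested passed, 11.0% higher and 9.74% lower. The groups did not overlap for 16 members, 13 higher and 3 lower, where 39.8% of all genes did not overlap, 20.5% higher and 19.3% lower. The share of members that passed was not above that of genes in general. In whole tissue, a change in the number of cells of a type and one in RNA per cell cannot be told apart. The log2 fold change was above 0 for 36 of the 44 members, with a median of 0.29 beside 0.0064 over all genes tested. An unadjusted p under 0.05 by edgeR was found for 18 members, 15 higher and 3 lower. Over all 13756 genes tested it was found for 4973, 2584 higher and 2389 lower.

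**Figure D2:**
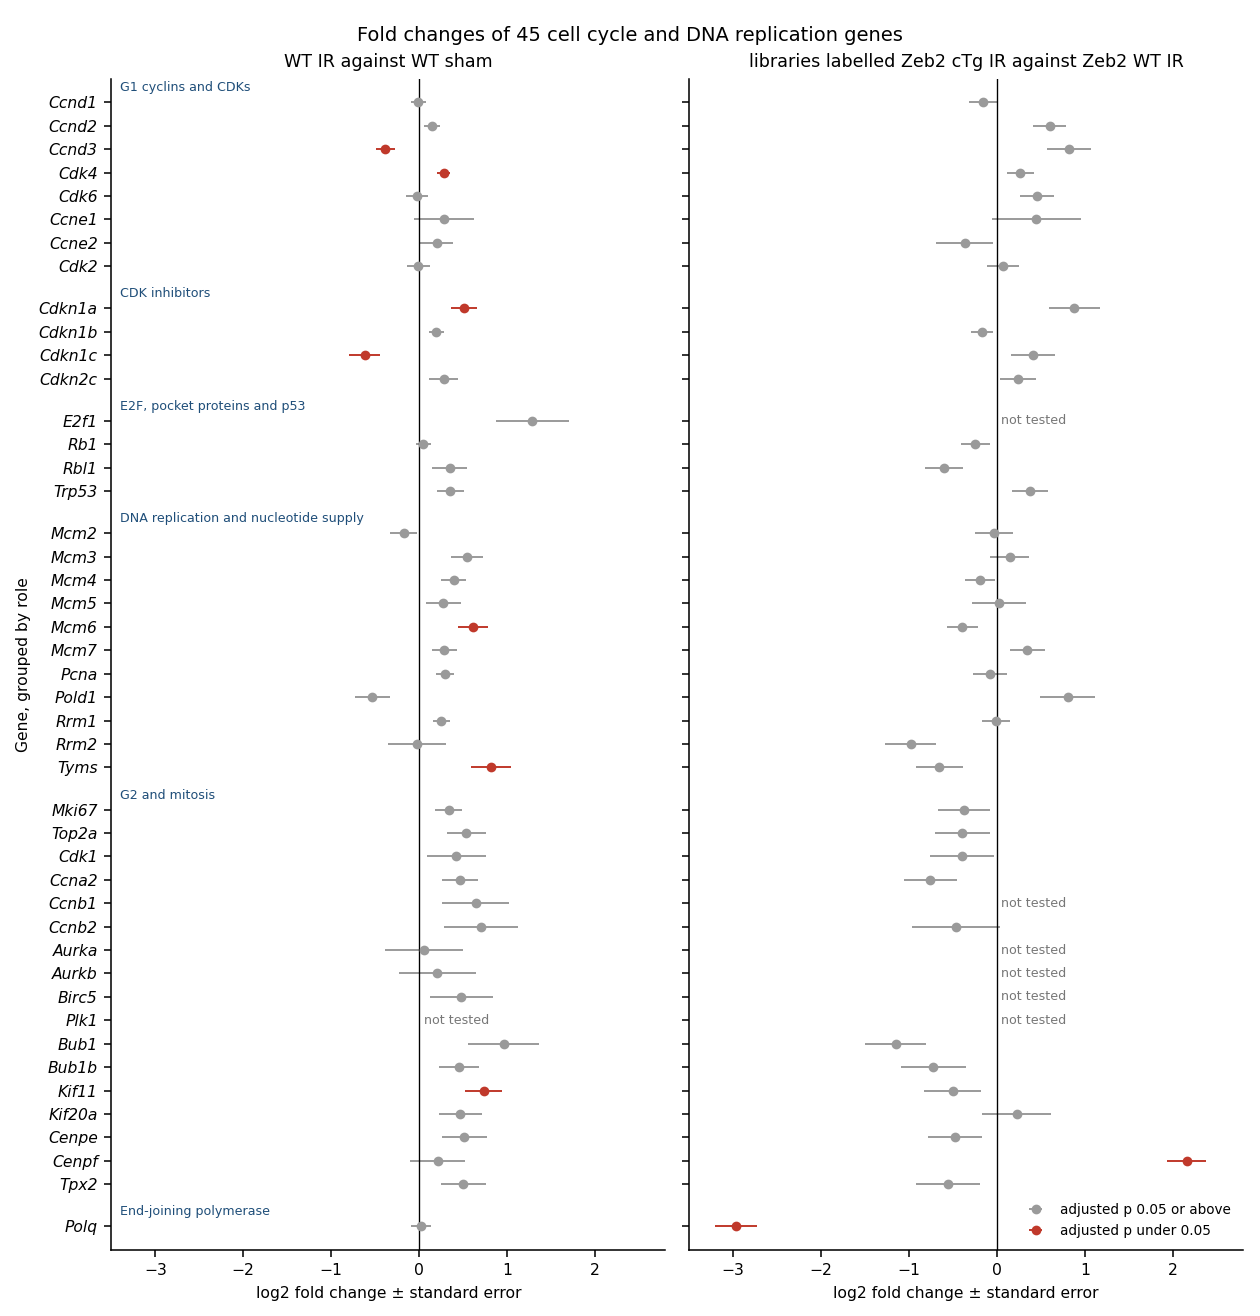
Log2 fold change ± SE of each member by role, in WT IR against WT sham (left) and in the libraries labelled Zeb2 cTg IR against Zeb2 WT IR (right), with members at an adjusted p under 0.05 in red. On the left, 7 members passed and all tested G2 and mitosis members lie above 0. On the right, Cenpf at 2.16 and Polq at -2.97 stand apart from the other members.

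Among the 8 G1 cyclins and CDKs, 1 rose and 1 fell. Cdk4, the kinase partner of the D-type cyclins (ENSMUSG00000006728, GRCm38 chromosome 10, 127063534 to 127067920, plus strand), had 12.3, 12.4 and 12.7 CPM in WT sham and 15.1, 14.9 and 15.3 CPM in WT IR. The groups did not overlap and each spanned less than 1 CPM. The log2 fold change was 0.28 (SE 0.07, edgeR adjusted p = 0.0283). Ccnd3, cyclin D3 (ENSMUSG00000034165, chromosome 17, 47505051 to 47599691, plus strand), had 9.19, 10.2 and 11.0 CPM in WT sham and 8.34, 7.88 and 6.93 CPM in WT IR. Every WT IR library lay below every sham library, with a log2 fold change of -0.38 (SE 0.11, edgeR adjusted p = 0.0353). Cdk4 overlaps Tspan31 and Ccnd3 overlaps Bysl on the opposite strand. The strand setting of the counting is not given in the sources used here, so how reads in these overlaps were counted is not known. The same holds for 7 other members that overlap a protein-coding gene (Ccnd1, Ccne2, Cdk2, Rb1, Mcm7, Ccna2 and Kif20a). These overlaps are of whole gene spans, not of exons alone.

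The other cyclins and kinases of G1 did not pass. Ccnd1 had a log2 fold change of -0.01, Cdk6, a second partner of D-type cyclins, -0.02 and Cdk2, the partner of cyclin E, -0.01, with overlapping groups for all 3. Ccnd2 had 0.15 (adjusted p = 0.274 by edgeR). The cyclin E genes were weakly expressed. Ccne1 had 8, 14 and 4 raw counts in WT sham and 13, 18 and 9 in WT IR, and Ccne2 had from 27 to 80 counts over the 6 libraries.

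The CDK inhibitors moved in both directions. Cdkn1a, which encodes p21, a target of p53 (ENSMUSG00000023067, chromosome 17, 29090976 to 29100727, plus strand), had 5.48, 4.11 and 3.55 CPM in WT sham and 6.495, 6.29 and 6.11 CPM in WT IR. The WT IR libraries lay close together above all sham libraries, with a log2 fold change of 0.51 (SE 0.15, edgeR adjusted p = 0.0410). Cdkn1c, which encodes p57 from an imprinted locus (ENSMUSG00000037664, chromosome 7, 143458339 to 143461050, minus strand), had 4.31, 4.26 and 3.90 CPM in WT sham and 3.40, 2.09 and 2.68 CPM in WT IR. The groups did not overlap and the log2 fold change was -0.62 (SE 0.18, edgeR adjusted p = 0.0374). Cdkn1b had 13.6, 13.5 and 15.8 CPM in WT sham and 16.4, 16.1 and 16.3 CPM in WT IR, without overlap, and did not pass (log2 fold change 0.19, adjusted p = 0.136 by edgeR). Cdkn2c, which encodes p18, an inhibitor of Cdk4 and Cdk6, had 0.28 (adjusted p = 0.259 by edgeR) with overlapping groups.

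None of the 4 genes of the E2F, pocket protein and p53 group passed, by edgeR with TMM scaling or by DESeq2, and 2 had an unadjusted p under 0.05. E2f1, the activating E2F factor, had 4, 5 and 7 raw counts in WT sham and 14, 23 and 14 in WT IR. Its groups did not overlap, at a log2 fold change of 1.29 (SE 0.41, edgeR adjusted p = 0.0541). E2f1 passed in 4 of 14 alternatives, which were the cardiomyocyte marker scaling, the GC correction and the fits without sham 3 or without IR 1, and its adjusted p ranged from 0.0267 to 0.240 over the 14. Trp53, which encodes p53, had 0.35 (adjusted p = 0.134 by edgeR), Rbl1, the pocket protein p107, 0.35 (adjusted p = 0.237) and Rb1 0.05 (adjusted p = 0.733), and the groups overlapped for all 3.

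Mcm6 and Tyms rose among the 11 genes of DNA replication and nucleotide supply, and 8 of the 11 lay above 0. Mcm6, a subunit of the MCM helicase that opens DNA at origins (ENSMUSG00000026355, chromosome 1, 128331590 to 128359664, minus strand), had 4.95, 3.68 and 3.55 CPM in WT sham and 5.22, 6.24 and 7.38 CPM in WT IR. The groups were separated by a narrow gap between sham 1 and IR 1, and the log2 fold change was 0.62 (SE 0.17, edgeR adjusted p = 0.0321). Tyms, thymidylate synthase (ENSMUSG00000025747, chromosome 5, 30058202 to 30073617, minus strand), had 1.55, 1.26 and 1.34 CPM in WT sham and 1.75, 2.86 and 2.68 CPM in WT IR. Again IR 1 lay nearest to the sham hearts, with a log2 fold change of 0.82 (SE 0.22, edgeR adjusted p = 0.0318).

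None of the other 5 helicase subunits passed, although 4 of them lay above 0. Mcm3 had a log2 fold change of 0.54 (adjusted p = 0.0593 by edgeR), Mcm4 0.39 (adjusted p = 0.0855), Mcm7 0.28 (adjusted p = 0.174) and Mcm2 -0.18 (adjusted p = 0.446). Mcm5 was counted 42, 51 and 18 times in WT sham and 58, 62 and 47 times in WT IR, at a log2 fold change of 0.27 (adjusted p = 0.351 by edgeR). The groups did not overlap in CPM for Mcm3, Mcm5 and Mcm7. Pcna, the sliding clamp of the replicative polymerases, had 5.03, 5.15 and 4.83 CPM in WT sham and 6.15, 5.90 and 6.45 CPM in WT IR, without overlap (log2 fold change 0.30, adjusted p = 0.0705 by edgeR). Pold1, the catalytic subunit of polymerase delta, lay the other way at -0.53 (adjusted p = 0.0841 by edgeR) without overlap. The ribonucleotide reductase subunit genes were Rrm1, with 0.25 (adjusted p = 0.0949 by edgeR), and Rrm2, which had 26, 31 and 22 raw counts in WT sham and 18, 42 and 39 in WT IR.

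**Figure D3:**
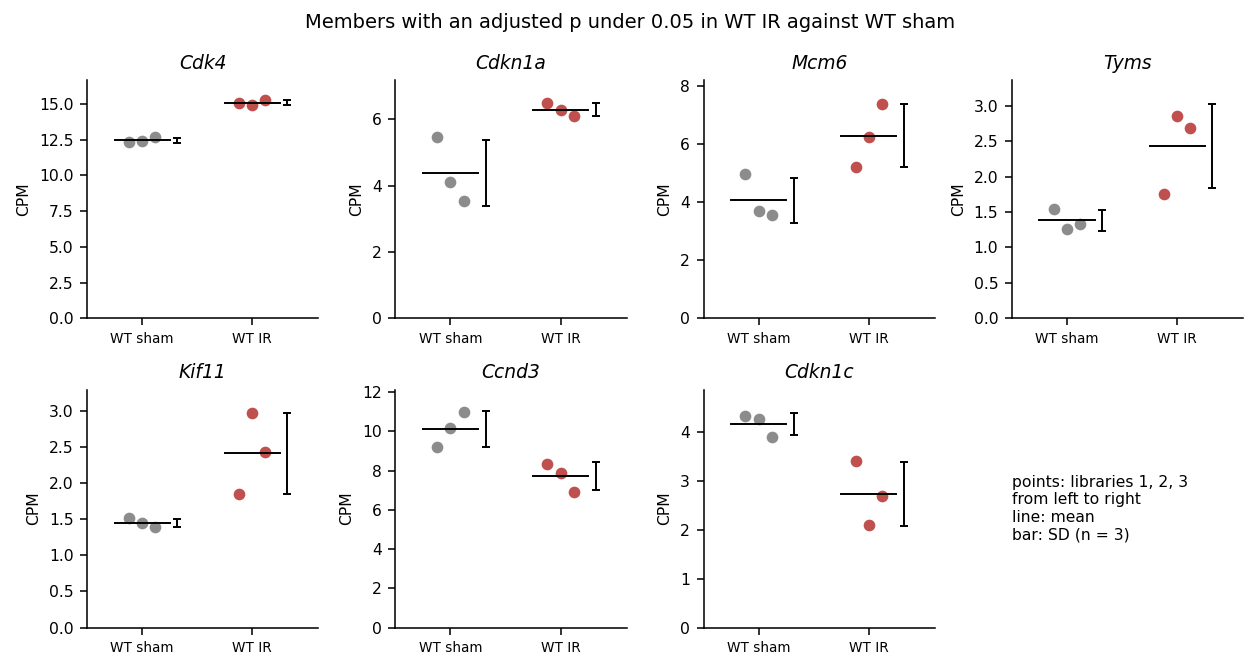
CPM of the 7 members that passed in WT IR against WT sham, with each point 1 library, the line the mean and the bar the SD of 3 libraries. Cdk4, Cdkn1a, Mcm6, Tyms and Kif11 lie higher and Ccnd3 and Cdkn1c lower in WT IR, without overlap, and for Mcm6, Tyms and Kif11 the first WT IR library lies nearest to the sham hearts.

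All 16 tested genes of G2 and mitosis had a log2 fold change above 0, with a median of 0.47, but only Kif11 passed and 4 had an unadjusted p under 0.05. Their median GC content was 47%, beside 49.4% over all genes tested. In this comparison log2 fold changes were lower for transcripts richer in GC (Spearman's rho -0.292 across 13609 genes, which are not replicates of one another). The part of this trend in their values was not tested. Kif11, the kinesin that pushes the spindle poles apart (ENSMUSG00000012443, overlapped by processed pseudogenes, chromosome 19, 37376403 to 37421859, plus strand), had 1.51, 1.44 and 1.40 CPM in WT sham and 1.84, 2.96 and 2.42 CPM in WT IR, which did not overlap. The log2 fold change was 0.73 (SE 0.21, edgeR adjusted p = 0.0354). Mki67 had 8.85, 9.44 and 8.32 CPM in WT sham and 8.74, 13.5 and 11.4 CPM in WT IR (log2 fold change 0.33, adjusted p = 0.137 by edgeR). Top2a had 3.67, 3.92 and 4.13 CPM in WT sham and 3.59, 6.93 and 6.37 CPM in WT IR (0.53, adjusted p = 0.117). For both genes IR 1 lay within the sham range or below it and the other WT IR hearts lay above it.

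Most mitotic members were weakly expressed and are given by raw counts, which in the next 4 genes were highest in IR 2. Cdk1, the mitotic kinase, was counted 25, 25 and 13 times in WT sham and 19, 56 and 33 times in WT IR. Ccnb2, cyclin B2, was counted 12, 16 and 8 times in WT sham and 14, 47 and 15 times in WT IR, and Ccnb1, cyclin B1, 9, 6 and 3 times against 11, 16 and 9 times. These 3 genes overlapped between the groups in CPM. Bub1, a kinase of the spindle checkpoint, was counted 10, 9 and 3 times in WT sham and 13, 30 and 12 times in WT IR, without overlap in CPM (log2 fold change 0.96, adjusted p = 0.119 by edgeR). Plk1, the polo-like kinase that did not pass the filter, was counted 3, 8 and 3 times in WT sham and 5, 7 and 3 times in WT IR.

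Of the remaining mitotic genes, Aurka encodes a spindle pole kinase, and Aurkb and Birc5 encode parts of the chromosomal passenger complex. Over the 6 libraries Aurka had from 2 to 15 raw counts, Aurkb from 5 to 18 and Birc5 from 4 to 17. Ccna2, cyclin A2, had from 20 to 78 counts, Bub1b, a checkpoint kinase, from 18 to 62, and Kif20a, a kinesin of cytokinesis, from 17 to 59. Cenpe, a kinetochore motor, had from 17 to 61 counts and Tpx2, a spindle assembly factor, from 10 to 56. Their log2 fold changes lay between the 0.06 of Aurka and the 0.51 of Cenpe, and none passed.

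Cenpf, a large protein of the nuclear matrix and kinetochore, did not follow the other mitotic genes across libraries. It had 14.7, 13.2 and 17.7 CPM in WT sham and 28.4, 13.6 and 10.1 CPM in WT IR, so the library in which it was highest, IR 1, was the one in which most other mitotic members were at sham level. Its log2 fold change was 0.21 (SE 0.31, edgeR adjusted p = 0.668), and it was -0.33 without IR 1. Summed over the other 16 genes of G2 and mitosis, the level was 22.7, 23.3 and 21.2 CPM in WT sham and 23.1, 37.04 and 31.9 CPM in WT IR. IR 1 lay inside the sham range and the other WT IR hearts above it. With Cenpf included the sums were 37.4, 36.5 and 38.9 CPM against 51.5, 50.7 and 42.0 CPM.

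Markers of other cell types moved with this comparison. Of the 10 fibroblast markers 9 rose, and their sum was 898.7, 499.6 and 577.8 CPM in WT sham and 1829, 2960 and 4579 CPM in WT IR. Of the 10 macrophage and leukocyte markers 7 rose, with sums of 118, 106 and 119.8 CPM against 139.8, 217 and 259.5 CPM. IR 1 had the lowest sum among WT IR hearts on both lists, as it had for the mitotic genes without Cenpf, while with Cenpf its mitotic sum was the highest. Of the 22 cardiomyocyte markers 7 fell and 1 rose, and their sum lay between 69370 and 76260 CPM in WT sham and between 54000 and 69110 CPM in WT IR. Most of that sum was Ttn, with means of 39230 and 33750 CPM, which did not pass (adjusted p = 0.521 by edgeR). No marker of any of these lists was at 0 in all 6 libraries. The part of these shifts in the members' values was not tested. Of the remaining lists, none of 10 endothelial markers passed by edgeR (4 at an unadjusted p under 0.05), 1 smooth muscle and pericyte marker rose and 2 of 7 fell, 2 of 5 erythroid markers fell, and 1 of 8 lymphocyte markers was tested and did not pass.

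**Figure D4:**
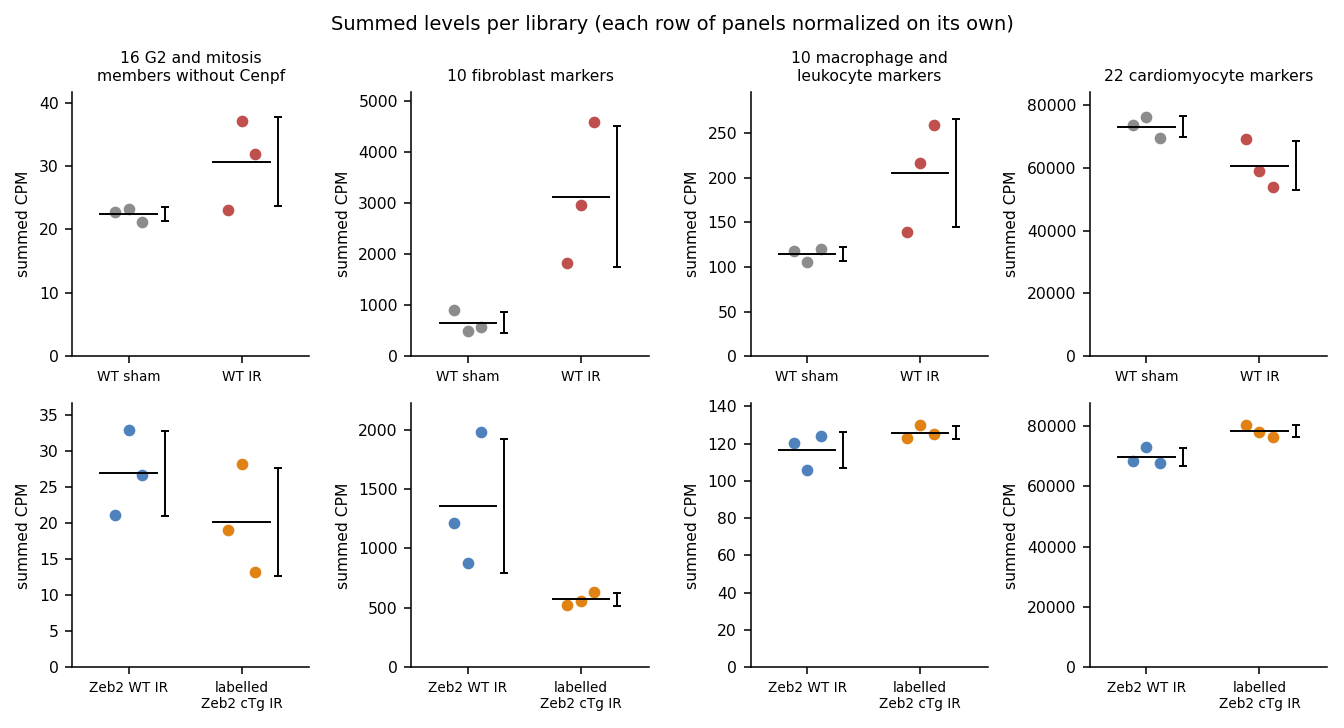
Summed CPM per library of the 16 G2 and mitosis members other than Cenpf and of 3 marker lists, with each row of panels scaled on its own, each point 1 library, the line the mean and the bar the SD of 3 libraries. In the upper row the first WT IR library has the lowest mitotic, fibroblast and macrophage sums and the highest cardiomyocyte sum of the WT IR hearts. In the lower row the mitotic sums overlap while every labelled library has a lower fibroblast sum than every control.

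Single hearts decided how many members passed. Without WT IR 1, 20 members passed, 17 higher and 3 lower, among them Mki67, Top2a, Cdk1, Ccna2, Bub1, Kif20a, Mcm3, Mcm4, Trp53 and Rbl1. Over all genes tested 36% passed in that fit. Without sham 2, IR 2 or IR 3 the count of members by edgeR was 0, with 9, 8 and 12 at an unadjusted p under 0.05, while 3.05%, 6.72% and 13.1% of all genes passed. Without sham 1 it was 2 (Cdkn1a and Mcm6), and without sham 3 it was 1 (E2f1). Of all genes, 8.97% and 9.98% passed in these fits. When libraries were scaled by the summed counts of 22 cardiomyocyte markers, the median over all genes became 0.29. Under this scaling 13 members rose and none fell, and Ccnd3 and Cdkn1c did not pass. Of all genes 22.5% passed, 2857 higher and 239 lower. After a correction for GC content, Cdk4, Cdkn1a, Mcm6, Tyms and E2f1 rose, while Kif11, Ccnd3 and Cdkn1c did not pass. In that fit 17.7% of all genes passed. Of 15 alternatives, Cdkn1a passed in 10, Mcm6 and Tyms in 9, Cdk4, Kif11 and Cdkn1c in 7 and Ccnd3 in 5.

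Polq, which encodes DNA polymerase theta of microhomology-mediated end joining, differed little between these groups. It had 8.62, 8.12 and 7.39 CPM in WT sham and 9.21, 8.06 and 7.23 CPM in WT IR, a log2 fold change of 0.02 (SE 0.12, edgeR adjusted p = 0.926). The groups overlapped almost fully.

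Outside the members, 181 of 183 further cell cycle genes were found in the tables and 155 were tested, of which 17 rose and 4 fell (13.5%, beside 20.8% of all genes). In the list of p53 targets and checkpoint genes, 5 rose and 2 fell of 18 tested (38.9%). Trp53inp1, a stress protein induced by p53, had 12.4, 10.3 and 12.9 CPM in WT sham and 19.9, 22.5 and 25.9 CPM in WT IR (log2 fold change 0.95, SE 0.12, adjusted p = 0.00329 by edgeR). Wrn, the helicase mutated in Werner syndrome and a replication repair protein rather than a classical p53 target, had 7.56, 7.35 and 7.27 CPM against 10.3, 11.8 and 11.6 CPM (0.60, adjusted p = 0.00486). Both passed in all 15 alternatives tried. The stress gene Gadd45b rose by a log2 fold change of 1.41 (adjusted p = 0.00923 by edgeR) and Ccng2, an unconventional cyclin G linked to arrest, by 0.51 (adjusted p = 0.0103). Gadd45g of the same stress family fell, with -1.19 (adjusted p = 0.0122), and so did Mdm2, the ubiquitin ligase that removes p53, with -0.27 (adjusted p = 0.0371). Mdm2 lay at 0.0044 when scaled by cardiomyocyte markers, passed in 7 of 15 alternatives and did not pass by DESeq2.

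Among 32 other cell cycle regulators 5 rose and 2 fell, a share of 21.9% that is near the 20.8% of all genes. Myc, a transcription factor of growth, had 0.907, 0.766 and 0.640 CPM in WT sham and 1.59, 1.67 and 2.27 CPM in WT IR, without overlap (log2 fold change 1.22, SE 0.23, adjusted p = 0.00934 by edgeR). Fzr1, which directs the anaphase-promoting complex in G1, fell by 0.55 on the log2 scale (adjusted p = 0.00845 by edgeR) and E2f4, a repressive E2F factor, had -0.37 (adjusted p = 0.0452). Fzr1 passed in 11 of 15 alternatives. E2f4 passed in 4 of 15, and neither by DESeq2 nor after the GC correction. Of 33 other mitotic genes 5 rose (15.2%) and none fell, with a median of 0.57, near that of the mitotic members. Of 42 other replication genes 1 rose (Orc6, 2.38%), and of 30 other repair genes 1 rose (Polk, 3.33%). Neither Orc6 nor Polk passed by DESeq2. Over these lists the count was 45 without WT IR 1 and 2 without sham 2, which were Trp53inp1 and Wrn.

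The libraries labelled Zeb2 cTg IR were compared with Zeb2 WT IR to ask what the transgene changed after injury. Cenpf rose and Polq fell, both by large amounts, and no other member passed. Of the 45 members 39 were tested, and E2f1, Ccnb1, Aurka, Aurkb, Birc5 and Plk1 did not pass the filter. The 2 that passed are 5.13% of the 39, where 3.64% of all 13018 genes passed, 2.14% higher and 1.51% lower. The groups did not overlap for 7 members, 3 higher and 4 lower, where 26.2% of all genes did not overlap, 13.4% higher and 12.8% lower. The median log2 fold change of the members was -0.16, beside 0.0059 over all genes tested, with 16 above 0 and 23 below. An unadjusted p under 0.05 by edgeR was found for 12 members, 6 higher and 6 lower. Over all 13018 genes tested it was found for 3134, 1823 higher and 1311 lower.

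Cenpf (ENSMUSG00000026605, chromosome 1, 189640606 to 189688086, minus strand) had 31.6, 26.3 and 22.4 CPM in Zeb2 WT IR and 158, 114 and 87.3 CPM in the hearts labelled Zeb2 cTg IR. In raw counts these were 861, 649 and 674 against 3767, 2975 and 3109. Every labelled library lay far above every control. The log2 fold change was 2.16 (SE 0.22, edgeR adjusted p = 0.00204), a 4.47-fold difference. It passed in all 15 alternatives, between 1.90 and 2.34. In CPM per kb, Cenpf had 1.73 ± 0.297 in Zeb2 WT IR and 7.74 ± 2.31 in the labelled libraries (SD, n = 3), while Mki67 had 1.00 ± 0.183 and 0.778 ± 0.349.

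Polq (ENSMUSG00000034206, chromosome 16, 37011786 to 37095417, plus strand) had 10.3, 9.18 and 12.3 CPM in Zeb2 WT IR and 1.05, 1.87 and 1.15 CPM in the hearts labelled Zeb2 cTg IR. In raw counts these were 282, 227 and 370 against 25, 49 and 41. Every labelled library lay far below every control. The log2 fold change was -2.97 (SE 0.24, edgeR adjusted p = 0.000667), 7.84-fold lower. It passed in all 15 alternatives, between -3.27 and -2.84. In the annotation no other gene overlaps Polq, and Cenpf overlaps only a processed pseudogene, Gm37239, on the opposite strand.

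**Figure D5:**
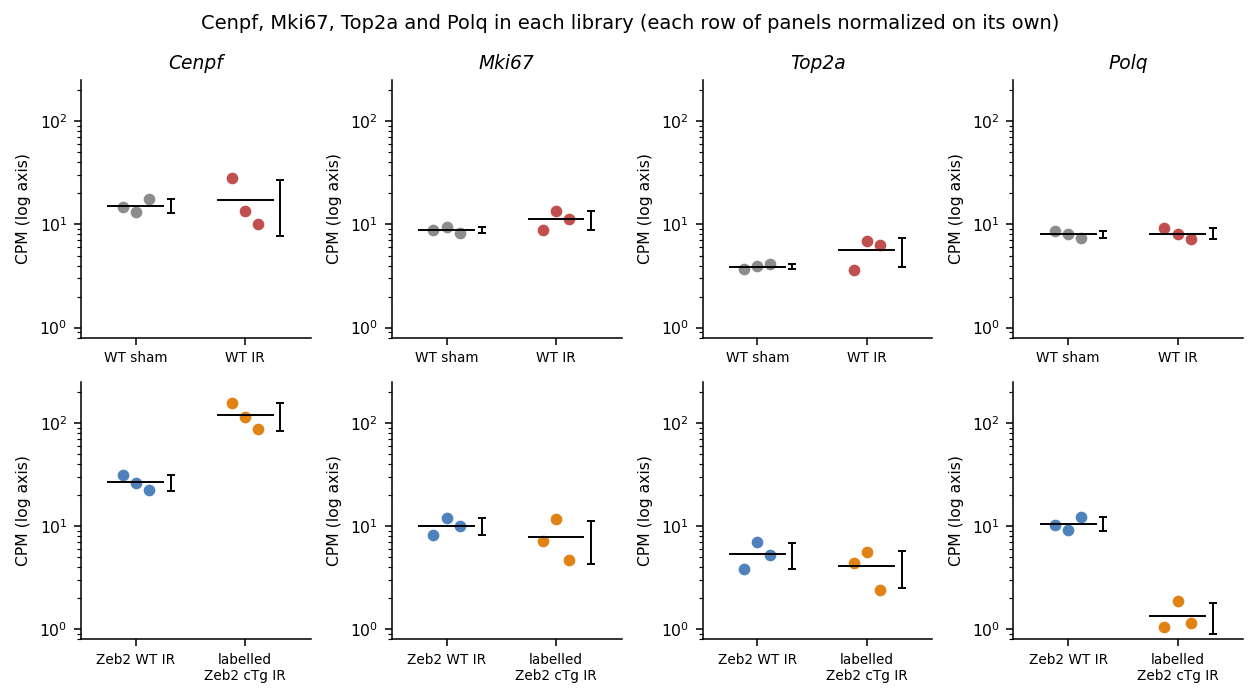
CPM (log axis) of Cenpf, Mki67, Top2a and Polq in each library, in WT sham and WT IR (upper row) and, in the lower row, in Zeb2 WT IR and in libraries labelled Zeb2 cTg IR, with each row of panels scaled on its own, the line the mean and the bar the SD of 3 libraries. In the lower row Cenpf lies between 22.4 and 31.6 CPM against 87.3 and 158 CPM and Polq between 9.18 and 12.3 CPM against 1.05 and 1.87 CPM, while Mki67 and Top2a overlap between the groups.

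Of the genes near Cenpf and Polq, 1 passed, where 3.64% of all genes did. This look was chosen after the values of both genes had been seen. Within 1 Mb on each side of Cenpf, 5 genes were tested and none passed, by edgeR, with log2 fold changes from -0.40 for Prox1 (adjusted p = 0.0804) to 0.50 for Smyd2 (adjusted p = 0.0527). Within 1 Mb of Polq 17 genes were tested. Slc15a2, a peptide transporter gene, fell with -1.37 (SE 0.29, edgeR adjusted p = 0.0380), while the nearest tested genes on the left, Fbxo40 and Hcls1, had 0.09 (adjusted p = 0.667) and 0.38 (adjusted p = 0.368). The nearest tested genes on the right, Gtf2e1 and Rabl3, had 0.53 (adjusted p = 0.105 by edgeR) and -0.04 (adjusted p = 0.936). Fstl1, a follistatin-like gene, lay the same way as Polq at -1.06 (adjusted p = 0.0877) without passing.

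The sequences upstream of both genes are shown because they are the members that passed here and lie at opposite ends of the range. They are the 250 bases before the RefSeq transcript start on GRCm38.p6, read 5′ to 3′ on the gene's strand, with the letters CCAAT and TTTGAA on either strand in capitals. CCAAT is the box bound by the factor NF-Y, and TTTGAA is the core of the cell cycle homology region (CHR), at which the DREAM and MuvB complexes hold and release mitotic genes. The Cenpf stretch is chr1:189688087-189688336 on the minus strand and the Polq stretch chr16:37011536-37011785 on the plus strand.
Cenpf: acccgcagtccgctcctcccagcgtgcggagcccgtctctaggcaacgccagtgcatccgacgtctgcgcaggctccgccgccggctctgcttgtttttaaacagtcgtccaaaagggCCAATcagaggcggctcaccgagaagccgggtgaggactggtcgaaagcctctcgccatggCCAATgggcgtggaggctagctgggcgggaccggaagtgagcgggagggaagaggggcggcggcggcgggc
Polq: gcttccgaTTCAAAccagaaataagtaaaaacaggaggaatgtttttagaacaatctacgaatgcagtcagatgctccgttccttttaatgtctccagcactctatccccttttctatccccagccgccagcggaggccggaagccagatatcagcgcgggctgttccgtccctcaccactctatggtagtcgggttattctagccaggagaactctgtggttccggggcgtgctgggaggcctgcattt

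Cenpf holds 2 CCAAT boxes, beginning 132 and 71 bases before the start, and TTTGAA 2 bases after it. Polq holds no CCAAT in the window of 300 bases, and TTTGAA at 2 places, 242 bases before the start on the opposite strand and 3 bases before it, where it runs over the start. For comparison, the 100 bases before the start are shown for Mki67 and Top2a, which did not pass, and for Kif11, Tyms and Mcm6, which rose in WT IR. In these the E2F letters TTTGGCGC, TTTCCCGC, TTTGGCGG and TTTCGCGC on either strand are in capitals too. The stretches are chr7:135716380-135716479 (Mki67), chr11:99024190-99024289 (Top2a), chr5:30073626-30073725 (Tyms) and chr1:128359706-128359805 (Mcm6) on the minus strand and chr19:37376282-37376381 (Kif11) on the plus strand. Matches farther upstream are not shown. Mki67 holds CCAAT there, beginning 188, 166 and 141 bases before the start, and Top2a 227, 189 and 149 bases before it.
Mki67: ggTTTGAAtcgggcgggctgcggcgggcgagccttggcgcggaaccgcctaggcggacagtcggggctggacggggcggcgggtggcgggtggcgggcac
Top2a: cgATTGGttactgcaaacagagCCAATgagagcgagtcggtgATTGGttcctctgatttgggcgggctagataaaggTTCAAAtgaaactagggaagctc
Kif11: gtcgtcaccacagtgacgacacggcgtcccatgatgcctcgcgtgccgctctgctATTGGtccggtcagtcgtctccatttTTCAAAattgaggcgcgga
Tyms: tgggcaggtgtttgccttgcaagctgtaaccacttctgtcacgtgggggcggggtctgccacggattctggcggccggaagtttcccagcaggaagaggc
Mcm6: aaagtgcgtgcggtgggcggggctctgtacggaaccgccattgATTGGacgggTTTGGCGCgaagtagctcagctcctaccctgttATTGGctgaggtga

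RefSeq promoters were found for 35 of the 45 members, and 25 of them (71.4%) hold CCAAT in the window of 250 bases before to 50 after the start, where 41.1% of 27025 genes with a promoter do. Among the 13 G2 and mitosis members with a promoter, 12 hold CCAAT and 9 hold TTTGAA, where 20.2% of all genes hold TTTGAA. E2F letters are in 8 of the 35 (22.9%), where 2.70% of all genes hold them, and in 5 of the 10 replication members. Cenpf therefore carries the same letters as most mitotic members. A match or its lack describes these windows only. Both strands were searched, and overlapping matches of the E2F letters, as in Mcm6, count once per promoter.

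The other genes of G2 and mitosis lay the other way from Cenpf. Of the 11 tested without it, 10 were below 0, with a median of -0.48, and none passed by edgeR or DESeq2, with 2 at an unadjusted p under 0.05. Their median GC content was 46.6%, beside 49.3% over all genes tested. Log2 fold changes were higher for transcripts richer in GC here (Spearman's rho 0.552). None of their signs turned after the GC correction, and the part of this trend in their values was not tested. Mki67 had 8.25, 11.9 and 10.1 CPM in Zeb2 WT IR and 7.12, 11.6 and 4.72 CPM in the labelled libraries (log2 fold change -0.37, adjusted p = 0.450 by edgeR). Top2a had 3.89, 6.96 and 5.26 CPM against 4.36, 5.61 and 2.39 CPM (-0.39, adjusted p = 0.465). Their groups overlapped, and the third labelled library was lowest for both.

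Bub1 came nearest to the threshold among the mitotic genes. It was counted 16, 19 and 18 times in Zeb2 WT IR and 5, 9 and 11 times in the labelled libraries, without overlap (log2 fold change -1.15, SE 0.35, adjusted p = 0.0917 by edgeR). Ccna2 was counted 32, 50 and 54 times against 22, 33 and 28 times (-0.76, adjusted p = 0.170). Cdk1 was counted 20, 23 and 28 times against 14, 26 and 15 times, and Ccnb2 16, 12 and 7 times against 3, 11 and 13 times, both with overlapping groups. Bub1b had from 17 to 38 raw counts over the 6 libraries, Kif11 from 31 to 64, Cenpe from 24 to 41, Tpx2 from 22 to 49 and Kif20a, the only other member above 0, from 12 to 36.

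The mitotic genes that did not pass the filter had few reads. Ccnb1 had 13, 7 and 7 raw counts in Zeb2 WT IR and 7, 10 and 4 in the labelled libraries. Aurka had from 2 to 12, Aurkb from 0 to 6, Birc5 from 4 to 8 and Plk1 from 0 to 4 over the 6 libraries. These 5 genes were left out of the test, so no difference is given for them. Summed over the 16 genes other than Cenpf, the level was 21.1, 32.8 and 26.7 CPM in Zeb2 WT IR and 19.0, 28.2 and 13.2 CPM in the labelled libraries, which overlapped. With Cenpf the sums were 52.6, 59.1 and 49.1 CPM against 177, 142 and 100.5 CPM, so Cenpf alone set the direction of the whole group.

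The 8 G1 cyclins and CDKs had a median of 0.36, and none passed by edgeR, with 3 at an unadjusted p under 0.05. Ccnd2 had 40.4, 50.8 and 35.6 CPM in Zeb2 WT IR and 48.2, 68.4 and 75.5 CPM in the labelled libraries (log2 fold change 0.60, SE 0.19, adjusted p = 0.104 by edgeR). Ccnd3 had 5.98, 3.32 and 4.40 CPM against 8.25, 5.95 and 9.96 CPM (0.82, SE 0.25, adjusted p = 0.0948). In both genes 1 labelled library overlapped the controls, and both passed by DESeq2 and without a filter on low counts. Cdk6 had 4.40, 3.11 and 5.03 CPM against 5.49, 6.03 and 5.75 CPM, without overlap (0.46, adjusted p = 0.193 by edgeR). Cdk4 had 0.27 (adjusted p = 0.307), Ccnd1 -0.16 (adjusted p = 0.583) and Cdk2 0.07 (adjusted p = 0.841). Ccne1 had from 7 to 20 raw counts and Ccne2 from 31 to 60 over the 6 libraries.

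Of the CDK inhibitors, Cdkn1a came nearest to the threshold. It had 1.36, 2.06 and 2.83 CPM in Zeb2 WT IR and 3.10, 3.47 and 4.91 CPM in the labelled libraries, without overlap (log2 fold change 0.88, SE 0.29, adjusted p = 0.113 by edgeR). Cdkn1c had 0.41 (adjusted p = 0.338), Cdkn2c 0.24 (adjusted p = 0.484) and Cdkn1b -0.17 (adjusted p = 0.433), and each of these signs turned after the correction for GC content. Rbl1 had 3.41, 3.24 and 3.496 CPM against 2.01, 2.86 and 1.82 CPM, without overlap (-0.60, adjusted p = 0.135 by edgeR). Trp53 had 0.38 (adjusted p = 0.298) and Rb1 -0.24 (adjusted p = 0.388). E2f1, which did not pass the filter, was counted 6, 7 and 1 times against 7, 6 and 10 times.

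None of the 11 replication and nucleotide supply genes passed by edgeR or DESeq2, and 3 had an unadjusted p under 0.05. Rrm2 was counted 22, 24 and 24 times in Zeb2 WT IR and 10, 12 and 15 times in the labelled libraries. The groups did not overlap (log2 fold change -0.98, SE 0.29, adjusted p = 0.0896 by edgeR). Tyms was counted 59, 34 and 58 times against 24, 37 and 38 times (-0.65, adjusted p = 0.177), and Pold1 32, 19 and 29 times against 49, 28 and 70 times (0.80, adjusted p = 0.165), both with overlap. Mcm6 had -0.39 (adjusted p = 0.213), Mcm7 0.35 (adjusted p = 0.314), Mcm4 -0.19 (adjusted p = 0.503) and Mcm3 0.14 (adjusted p = 0.719). Pcna lay at -0.08 and Rrm1 at -0.01, each with overlapping groups. Mcm2 had from 38 to 55 raw counts and Mcm5 from 30 to 53, with log2 fold changes of -0.03 and 0.03.

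Of the further cell cycle genes, 150 were tested and 2 rose, both from the list of p53 targets, with none lower (1.33%, beside 3.64% of all genes). Phlda3, a p53-induced inhibitor of Akt signalling, had 1.47, 0.849 and 2.63 CPM in Zeb2 WT IR and 5.74, 5.49 and 5.25 CPM in the labelled libraries (log2 fold change 1.71, SE 0.33, adjusted p = 0.0249 by edgeR). Bax, the pore-forming protein of apoptosis, had 1.47, 1.62 and 1.13 CPM against 3.73, 2.25 and 3.42 CPM (1.16, SE 0.26, adjusted p = 0.0429). Neither passed after a correction for GC content, with log2 fold changes of 1.14 for Phlda3 (adjusted p = 0.107) and 0.46 for Bax (adjusted p = 0.312). In this comparison log2 fold changes were higher for transcripts richer in GC (Spearman's rho 0.552 across 12892 genes, which are not replicates of one another). None of 28 other repair genes passed beside Polq by edgeR, with 6 at an unadjusted p under 0.05. None of 43 other replication genes, 32 other mitotic genes or 30 other regulators passed either, with 7, 4 and 6 at an unadjusted p under 0.05. By DESeq2, Poll, Smc4, Cdkn2d, Fzr1 and Gas1 of these lists passed too.

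Markers of other cell types also moved between these groups. Of the 10 fibroblast markers 3 fell (Col1a2, Col3a1 and Lum), and 8 lay below 0. Thbs4 and Tcf21 lay above 0, at log2 fold changes of 0.80 (adjusted p = 0.190 by edgeR) and 0.01 (adjusted p = 0.989). The sum of the 10 markers was 1215, 881.9 and 1982 CPM in Zeb2 WT IR and 522, 560.0 and 633 CPM in the labelled libraries. Of the 22 cardiomyocyte markers 4 rose, with sums between 67700 and 73030 CPM against sums between 76290 and 80220 CPM. Without overlap between the groups, 7 of them lay higher and 2 lower. The 2 lower were Myl2 at -0.38 (adjusted p = 0.124 by edgeR) and Pln at -0.34 (adjusted p = 0.220). Ttn alone had means of 42200 and 46480 CPM and did not pass (log2 fold change 0.14, adjusted p = 0.642 by edgeR). The sums and the scaling by them therefore rest largely on this 1 gene. By edgeR no endothelial, macrophage and leukocyte or erythroid marker passed (5, 3 and 1 at an unadjusted p under 0.05), 1 of 6 tested smooth muscle and pericyte markers rose (Acta2), and no lymphocyte marker was tested. No fibroblast, macrophage or cardiomyocyte marker was at 0 in all 6 libraries. Scaled by the 22 cardiomyocyte markers, Cenpf and Polq both passed, with the median of all genes at -0.16. The part of these shifts in the other members' values was not tested.

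Without the labelled library 2, 6 members passed instead of 2, which added Ccnd3, Mki67, Pold1 and Rbl1. Over all genes tested 18.2% passed in that fit, beside 3.64% with every library. In the 5 other fits that left out 1 library the same 2 members passed, Cenpf and Polq. Between 0.737% and 2.45% of all genes passed in these. Over the further lists, 15 genes passed without the labelled library 2, and by edgeR none passed without Zeb2 WT IR 1 or without labelled library 1 or 3, with 26, 21 and 18 at an unadjusted p under 0.05.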

How the data were processed

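RNA was measured in 12 mouse heart libraries, 3 animals per group. The authors deposited 2 tables of raw counts per Ensembl gene, made per the labels and methods from stranded reads aligned to mm10 with STAR 2.4.2a, counted with HTSeq 0.6.1 (submitters' processing notes) against a GENCODE list. The records name an mRNA kit and the methods a total RNA kit. The study's own differential expression, made with DESeq, was not used here.

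Each table was fitted on its own with edgeR 4.0.16 in R 4.3.3, using TMM scaling, filterByExpr by group (minimum count 10, total 15), quasi-likelihood tests and p-values adjusted over every gene tested by Benjamini-Hochberg. A gene passed at an adjusted p under 0.05. The scripts were tested on simulated data. Each p-value sets the difference between groups against the spread among 3 animals per group, which is estimated partly over all genes tested.

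Members and all lists were chosen with earlier results of these data known. All members were named, with full statistics for those that passed. Of the 183 other genes (Fam64a and Sgol1 unmatched), those named had an adjusted p under 0.05 and groups that did not overlap, up to 5 per direction by adjusted p. Exon lengths and coordinates came from GENCODE M21, and promoters from RefSeq on GRCm38.p6. Fits without replicate numbers were compared with a replicate block, a GC correction (loess, span 0.5), both together, other scalings and filters, DESeq2 1.42.0 and fits that left out 1 library. Summed mitotic levels without Cenpf were added after the data had been seen.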

Additional observations from a re-analysis of the deposited data

How the results depend on the processing

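In WT IR against WT sham, the count of members that passed (7) became 13 when scaled by cardiomyocyte markers, 3 with DESeq2, 2 with the replicate block and GC correction together and between 0 and 20 when 1 library was left out. The count of other cell cycle genes (21) became 35, with 15 by DESeq2, 12 under block and GC correction and between 2 and 45 with 1 library left out. With the replicate block alone the counts were 5 members and 17 other genes. The share of all genes tested that passed (20.8%) became 22.5% under cardiomyocyte marker scaling, 17.2% with DESeq2 and 14.6% under block and GC correction. With the replicate block alone the share was 18.9%, and with 1 library left out it lay between 3.05% and 36%. The summed mitotic level differed by 10.5 CPM, by 18.6 CPM under cardiomyocyte marker scaling and by 8.29 CPM without Cenpf.

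In the libraries labelled Zeb2 cTg IR against Zeb2 WT IR, the count of members (2) became 5 without a filter on low counts, 5 with the replicate block, 4 with DESeq2 and between 2 and 6 with 1 library left out. The count of other genes (2) became 8 under cardiomyocyte marker scaling, 9 without a filter, 12 with the replicate block, 7 with DESeq2 and between 0 and 15 with 1 library left out. The share of all genes tested that passed (3.64%) became 7.02% without a filter, 13.9% with the replicate block and 7.64% with DESeq2. It became 6.41% under cardiomyocyte marker scaling and between 0.737% and 18.2% with 1 library left out. The summed mitotic level differed by 86.0 CPM and by -6.74 CPM without Cenpf. The block added Ccnd2, Ccnd3 and Cdkn1a. The labels name no other link between samples with the same number, and whether these shared a batch is not stated. The correlations of their deviations were -0.034, 0.012 and -0.015 in the WT table and 0.134, 0.26 and -0.042 in the Zeb2 table. Only number 2 of the Zeb2 table matched its own number best.

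Of 1387 refits of single genes 63 turned the sign, for 21 genes counted per comparison. Of these only Mdm2 in WT IR, at 0.0044 under cardiomyocyte marker scaling, passed in either fit. In WT IR under that scaling, the log2 fold change was 0.27 for Ccnd1, 0.25 for Cdk6, 0.27 for Cdk2, 0.091 for Mcm2 and 0.28 for Rrm2. With at least 10 counts in every library it was 0.0013 for Ccnd1 and 3e-04 for Cdk2. With the GC correction, alone and with the block, it was 0.0051 and 0.0065 for Ccnd1, -0.0733 and -0.0732 for Rb1 and -0.0359 and -0.0342 for Polq. With 1 library left out it ranged from -0.0751 to 0.0457 for Ccnd1, from -0.1012 to 0.0525 for Cdk6, from -0.0734 to 0.026 for Cdk2, from -0.0068 to 0.1045 for Rb1, from -0.3017 to 0.2715 for Rrm2, from -0.209 to 0.03 for Aurka, from -0.3289 to 0.473 for Cenpf and from -0.0777 to 0.0909 for Polq.

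In the Zeb2 table, cardiomyocyte marker scaling gave -0.0977 for Cdk2, -0.0165 for Mcm3 and -0.1311 for Mcm5. The GC correction, alone and with the block, gave 0.0075 and 0.0054 for Cdkn1b, -0.0708 and -0.0744 for Cdkn1c, -0.1992 and -0.1943 for Cdkn2c, -0.0183 and -0.0155 for Mcm3, -0.1069 and -0.0703 for Mcm5, 0.0382 and 0.0295 for Pcna and 0.1499 and 0.1488 for Rrm1. With 1 library left out the range was -0.068 to 0.8369 for Ccne1, -0.0293 to 0.1853 for Cdk2, -0.093 to 0.0292 for Mcm2, -0.0084 to 0.2498 for Mcm3, -0.1679 to 0.311 for Mcm5, -0.2872 to 0.0476 for Pcna, -0.1467 to 0.0844 for Rrm1 and -0.0945 to 0.4436 for Kif20a. The cause of these shifts was not tested. Depth limits the members under 50 mean raw counts, 17 in the WT table and 22 in the Zeb2 table.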
